A study of Mus musculus with 92 samples.

Results

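The livers of female mice given 5 mg/kg of HFPO-DA were compared with those of female mice given 0.5 mg/kg, with exposure duration as a block. The comparison took 20 of the 92 libraries of the series, 10 for each dose and 5 for each dose and duration, chosen by the sex, dose and duration in the labels and by no measured value. All animals were wild-type mice of the outbred CD-1 stock, dosed by oral gavage once a day for 9 or 18 months. HFPO-DA, short for hexafluoropropylene oxide dimer acid, is a short-chain perfluoroalkyl ether acid used in fluoropolymer manufacture. The reference group here was itself exposed, so the female animals at 0 mg/kg are given beside it. RNA from scraped sections of formalin-fixed, paraffin-embedded liver was measured with TempO-Seq, in which pairs of oligonucleotides are ligated on chosen transcripts and the ligated probes are counted. The tissue is whole liver, in which fewer cells of a type and less RNA per cell cannot be told apart.

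PPAR-alpha, encoded by Ppara, is a nuclear receptor abundant in hepatocytes that is activated by fatty acids, by fibrate drugs and by several perfluoroalkyl acids. Bound to DNA with its partner RXR, it switches on genes for the uptake, binding, activation and oxidation of fatty acids in peroxisomes, mitochondria and microsomes, and genes for lipid droplets. Rodent liver also carries a large set of genes with sex-dependent expression, many of them cytochromes P450 and sulfotransferases, set by the pattern of growth hormone secretion.

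Total counts of the 20 libraries ran from 4705124 to 6669437 at 9 months and from 9948220 to 16122838 at 18 months. At 18 months the totals of the doses did not overlap (9948220 to 11937743 at 5 mg/kg and 12721715 to 16122838 at 0.5 mg/kg, two-sided exact permutation test, p = 0.00794), while at 9 months they did (p = 0.984). Replicates of a group had Pearson's r across genes of 0.9095 to 0.9745. Of 9 hepatocyte markers with a probe, all were counted in each of the 20 libraries, with Alb at 1691 to 17750 CPM (counts scaled to TMM-normalised library totals) over both doses. Replicate 5 at 18 months and 0.5 mg/kg stood apart. Its 10 most abundant genes took 32.7% of its counts, and its acute phase and complement genes summed to 406400 CPM against 35620 to 67870 in the other 4 libraries of its group.

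Of 11476 genes tested, 295 (2.57%) differed between the doses at an adjusted p under 0.05 in edgeR's quasi-likelihood test with Benjamini-Hochberg adjustment, and are called here. At 5 mg/kg 182 were higher (1.59% of those tested) and 113 lower (0.985%), and the median log2 difference of all genes was -0.02. Differences of at least 4-fold were fitted for 42 of the higher and 16 of the lower genes. In 43 of the called genes the libraries of the doses did not overlap at either duration and lay the same way, 33 higher and 10 lower at 5 mg/kg. Over all genes tested this held for 45 (0.392%), 35 higher (0.305%) and 10 lower (0.0871%). Thinning all 20 libraries to 1 total, tried only after the depths had been seen, left 281 called genes, 262 of them shared. Without replicate 3 at 18 months and 5 mg/kg 188 were called, and without the 18-month 0.5 mg/kg replicate 5 there were 323, of which 264 were shared.

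**Figure D1:**
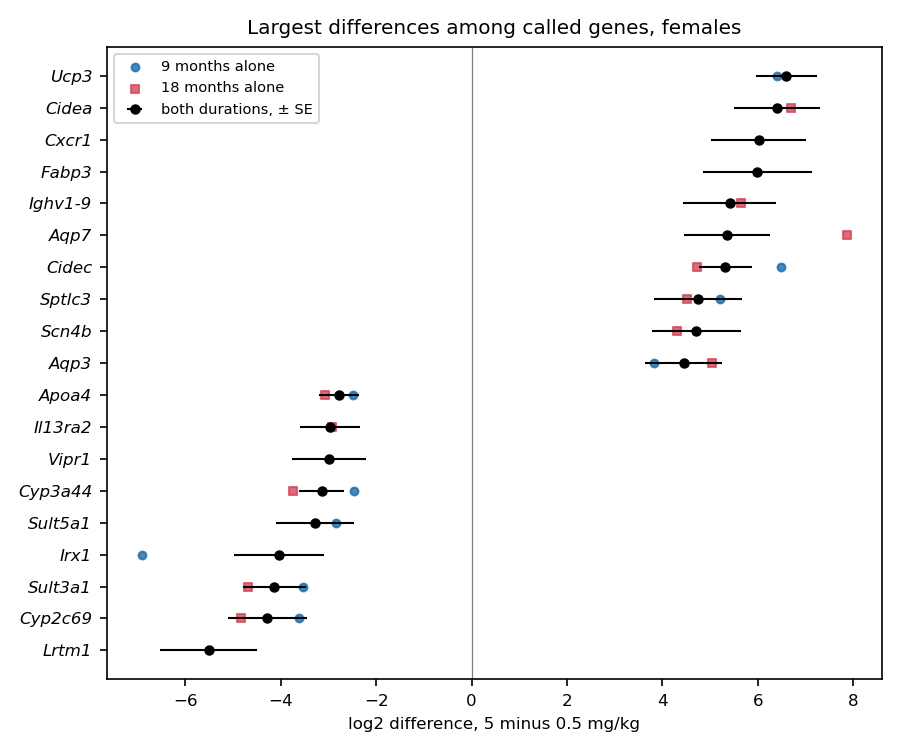
Log2 difference between 5 and 0.5 mg/kg in females for the 10 largest rises and for 9 of the 10 largest falls among called genes, the other fall not being reported here. Black points with bars are the fit of both durations ± SE over 20 libraries, and blue circles and red squares are fits of 9 or 18 months alone, left out where a gene did not pass the count filter of that fit. Ucp3 heads the rises at 6.59, and Lrtm1 is the lowest of the falls plotted, at -5.50.

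The 10 largest rises included genes of mitochondrial uncoupling, lipid droplets and glycerol transport. Ucp3, a mitochondrial uncoupling protein best known in muscle, was not counted in 7 of the 10 libraries at 0.5 mg/kg, and the other 3 had 0.135, 0.149 and 0.115 CPM. At 5 mg/kg it stood at 9.29, 9.76, 7.89, 3.36 and 3.75 CPM at 9 months and at 0.804, 4.52, 4.33, 3.43 and 4.40 at 18 months. All 10 libraries at 5 mg/kg lay above all 10 at 0.5 mg/kg, with a fitted log2 difference of 6.59 ± 0.64 (SE, adjusted p = 1.68e-06). The pooled counts were 388 and 3, a rate ratio of 149 (exact 95% interval for counting error only, 50.6 to 725.6). Cidea and Cidec encode proteins of the lipid droplet surface that are abundant in fat. Cidec was at 0 to 1.07 CPM at 0.5 mg/kg and at 1.66 to 20.1 at 5 mg/kg, with no overlap (log2 difference 5.32 ± 0.55, adjusted p = 2.7e-06). It was one of 9 genes called in each duration on its own. For Cidea the pooled counts were 245 at 5 mg/kg and 2 at 0.5 mg/kg, a ratio of 141 (38.6 to 1172), although 1 library at 5 mg/kg, replicate 3 at 9 months, had none.

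Water and glycerol channels were among the same 10. Aqp7, an aquaglyceroporin of fat cells, was counted in 1 of 10 libraries at 0.5 mg/kg, at 0.676 CPM, and in every library at 5 mg/kg, at 0.152 to 4.97 (log2 difference 5.36 ± 0.90, adjusted p = 0.00124). Only the 9-month libraries overlapped, through replicate 3 at 5 mg/kg. Aqp3, another aquaglyceroporin, had a median of 0.321 CPM at 0.5 mg/kg and of 12.1 at 5 mg/kg (4.44 ± 0.81, adjusted p = 0.00528). Its lowest library at 5 mg/kg, at 0.664 CPM, lay below the highest at 0.5 mg/kg, at 2.99. Of 4 fat cell markers, Lep was not counted in any of the 20 libraries, and none was counted at 0.5 mg/kg. At 5 mg/kg Adipoq was counted in 1 library, Plin1 in 2 and Retn in 4, at no more than 0.0887, 1.92 and 1.47 CPM, and their part in these rises was not tested.

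Fabp3, the heart-type fatty acid binding protein, varied more among animals than Cidec. Its CPM at 5 mg/kg were 28.2, 2.73, 0.303, 1.98 and 0 at 9 months and 7.23, 18.2, 21.4, 0.332 and 0 at 18 months, against 0 to 0.408 at 0.5 mg/kg. The doses overlapped at both durations, and the gene was called (5.99 ± 1.15, adjusted p = 0.00593). Sptlc3, a subunit of the enzyme that starts sphingolipid synthesis, went from a median of 0.101 to 24 CPM (4.75 ± 0.92, adjusted p = 0.00819). A single library at 0.5 mg/kg, the 18-month replicate 3, reached 9.30 CPM, above 2 of the 9-month libraries at 5 mg/kg but below all at 18 months. Scn4b, a sodium channel subunit, had a median of 0 CPM at 0.5 mg/kg and of 3.70 at 5 mg/kg (4.71 ± 0.93, adjusted p = 0.00528).

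Genes of white blood cells also entered the 10 largest rises. Cxcr1, a chemokine receptor of neutrophils, was at 0 to 0.471 CPM at 0.5 mg/kg and at 0.111 to 37.8 at 5 mg/kg (6.02 ± 0.99, adjusted p = 0.0024). The doses did not overlap at 9 months and did at 18 months. The neutrophil genes S100a8 and S100a9 had medians of 0.160 and 0.0335 CPM at 0.5 mg/kg and of 0.269 and 0.241 at 5 mg/kg, and none of 5 blood cell markers tested was called. The 10 blood cell markers with a probe summed to 13.9 to 38.9 CPM at 0.5 mg/kg and 16.2 to 40.5 at 5 mg/kg after 9 months, and to 13.2 to 124 and 6.79 to 89.1 after 18. Ighv1-9, an immunoglobulin variable segment, was called at 5.41 ± 0.97 (adjusted p = 0.00225) but was not ordered by dose: it reached 21.5 CPM at 0 mg/kg, no more than 0.174 at 0.5 mg/kg and 12.8 at 5 mg/kg. Lymphocyte and plasma cell markers, none of 12 called, summed to 37 to 85.2 CPM at 0.5 mg/kg and 46.4 to 128 at 5 mg/kg after 9 months, and to 87.4 to 622 and 66.8 to 400 after 18. Their part in these 2 results was not tested.

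Sequence upstream of the start sites was read for 4 of these 10 rises, each with a RefSeq promoter window. They are given in order of size, but not every larger rise was read. The best known sequence element of PPAR-alpha was looked for in the 250 bases before each start. A promoter window was held for 8 of the 10, and Fabp3 was passed over because another annotated start lies inside its window. Fabp3 was not the only larger rise left out, so the 4 are a partial selection. Each sequence is from RefSeq, build GRCm38.p6, reads 5′ to 3′ along the gene's strand, and has in capitals every AGGTCA, the core hexamer of nuclear receptor sites, on either strand.
Ucp3 (chr7:100472741-100472990, plus strand): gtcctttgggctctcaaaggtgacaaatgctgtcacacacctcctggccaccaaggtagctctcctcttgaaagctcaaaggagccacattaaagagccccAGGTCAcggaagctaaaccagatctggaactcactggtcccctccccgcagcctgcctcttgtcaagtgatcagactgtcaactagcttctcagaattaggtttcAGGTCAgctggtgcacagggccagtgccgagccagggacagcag
Cxcr1 (chr1:74194632-74194881, minus strand): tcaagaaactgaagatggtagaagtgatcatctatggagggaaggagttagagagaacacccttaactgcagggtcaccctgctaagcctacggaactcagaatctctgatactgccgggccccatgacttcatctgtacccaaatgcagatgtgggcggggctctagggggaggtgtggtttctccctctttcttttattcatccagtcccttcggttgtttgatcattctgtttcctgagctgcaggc
Aqp7 (chr4:41048137-41048386, minus strand, the first of 2 listed starts): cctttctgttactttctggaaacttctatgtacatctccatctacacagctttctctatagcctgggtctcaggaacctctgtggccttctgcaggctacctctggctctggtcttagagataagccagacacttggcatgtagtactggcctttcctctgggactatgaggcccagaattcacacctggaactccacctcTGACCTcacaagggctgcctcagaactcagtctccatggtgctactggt
Cidec (chr6:113435761-113436010, minus strand, the first of 2 listed starts): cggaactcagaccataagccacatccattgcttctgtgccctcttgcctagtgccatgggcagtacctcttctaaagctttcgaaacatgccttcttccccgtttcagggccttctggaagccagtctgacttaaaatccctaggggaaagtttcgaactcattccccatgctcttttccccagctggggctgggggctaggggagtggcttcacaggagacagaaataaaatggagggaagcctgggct
Ucp3 held 2 copies of AGGTCA, beginning 149 and 44 bases before the end of the window (counted as -149 and -44), Aqp7 held 1 at -49, written as its complement TGACCT, and Cxcr1 and Cidec held none. The spaced pair AGGNCANAGGNCA, a loose form of the direct repeat bound by PPAR-alpha and RXR, was in none of the 4. Among all 32851 windows 14% held AGGTCA and 0.338% the spaced pair, on either strand, and every spaced pair with T inside both hexamers also holds AGGTCA. Of 8985 genes tested with a window, 10.7% held AGGTCA and 0.256% the pair. The counts were 16 (11.3%) and 1 (0.704%) of 142 genes called higher, and 17 (17.7%) and 2 (2.08%) of 96 called lower. A match of these letters is a description of the window and no binding was measured.

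Transcripts of fatty acid oxidation genes were higher at 5 than at 0.5 mg/kg in the peroxisomal and the mitochondrial list. In each list 10 of 23 genes were called higher and none lower, beside 1.59% of all genes called higher. Ehhadh, which encodes the bifunctional enzyme of the peroxisomal pathway, was at 819, 832, 959, 874 and 1005 CPM at 9 months and 1934, 2568, 2968, 748 and 663 at 18 months at 0.5 mg/kg. With the higher dose it stood at 12580, 6832, 4901, 7645 and 6404 CPM and at 9384, 10280, 19290, 5626 and 6056. The doses were apart at both durations, by 6.92-fold in the fit (log2 difference 2.79 ± 0.29, adjusted p = 2.7e-06). Ech1, an enoyl-CoA isomerase, was likewise without overlap, at 10.1 to 31.7 and 34.5 to 46.3 CPM (0.81 ± 0.15, adjusted p = 0.0041). The median log2 difference of the peroxisomal list was 0.64, and 21 of its 23 genes were above 0. A further 7 called, chosen after their values were seen, were the thiolases Acaa1a at 1.03, Acaa1b at 1.40 and Scp2 at 0.47, the peroxisome assembly gene Pex19 at 0.51, and Decr2 at 0.60, Eci2 at 0.70 and Crot at 0.64, enzymes of unsaturated fatty acids and of carnitine transfer. Pex11a, which drives peroxisome division, went from a median of 41.1 to 87 CPM and was not called (1.06 ± 0.36, adjusted p = 0.151; 0.021 with DESeq2).

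The mitochondrial list had a median of 0.52, with all 23 genes above 0. At 9 months alone 10 of 23 were called (median 0.62), and at 18 months alone 0 of 22 (median 0.47). The peroxisomal list had 6 of 23 called at 9 months alone and 1 of 23 at 18 months alone. Decr1, a reductase of unsaturated fatty acids, was at 366 to 786 CPM at 0.5 mg/kg and 801 to 1400 at 5 mg/kg (0.92 ± 0.14, adjusted p = 0.000525). Hadhb, a subunit of the trifunctional protein, went from 103 to 199 CPM up to 191 to 353 (0.77 ± 0.13, adjusted p = 0.00111), the doses being apart within each duration. Pdk4, a kinase that shuts off pyruvate entry into mitochondria, had 0.134 to 5.77 CPM at 0.5 mg/kg and 3.10 to 34.4 at 5 mg/kg (3.03 ± 0.60, adjusted p = 0.00709). Its doses were apart at 9 months and overlapped at 18. Cpt1b, the muscle-type carnitine palmitoyltransferase, was higher by 3.52 ± 0.62 (adjusted p = 0.00483) and was chosen after its values were seen, as were the dehydrogenases Acadl at 0.79 and Acadm at 0.74, Eci1 at 0.91, Hadha at 0.52 and Ucp2, another uncoupling protein, at 0.96. Hadha lost its call without any 1 of 10 libraries. In the peroxisomal list Crot lost its call without any 1 of 9 libraries, Decr2 without 9-month 0.5 mg/kg replicate 1 or 4, 18-month 0.5 mg/kg replicate 4 or 18-month 5 mg/kg replicate 3, and Eci2 without the first, second or last of these or 9-month 5 mg/kg replicate 1.

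**Figure D2:**
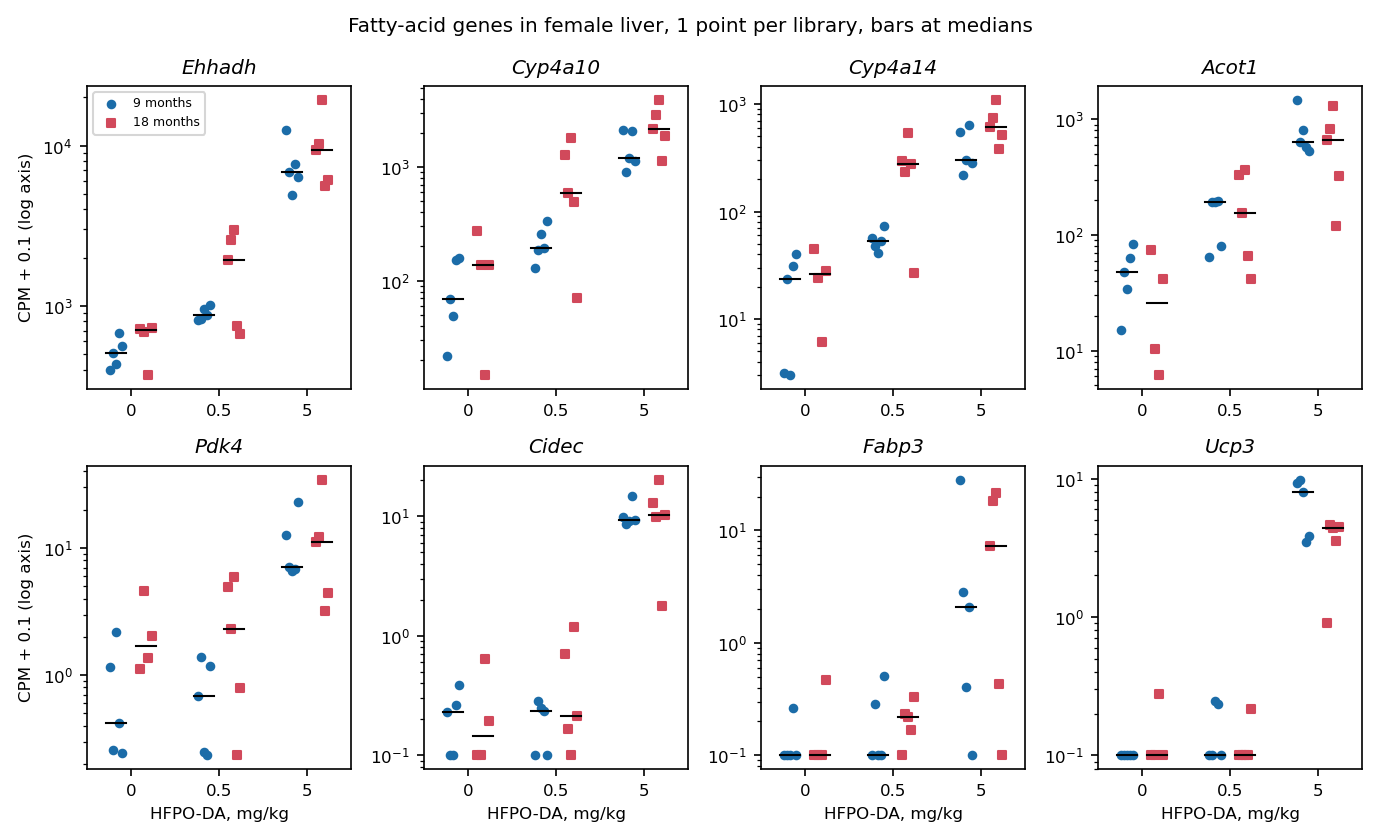
CPM + 0.1 on a log axis in female liver at 0, 0.5 and 5 mg/kg for 8 genes of fatty acid metabolism, 1 point per animal, circles for 9 and squares for 18 months, bars at medians, without the 18-month control library of 403108 counts. Ehhadh, Cidec and Ucp3 are apart between 0.5 and 5 mg/kg at both durations, and Cyp4a14 at 0.5 mg/kg and 18 months spreads from 26.6 to 540 CPM.

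Microsomal omega oxidation and the acyl-CoA thioesterases gave the list with the highest median among the lists of fatty acid genes, 2.06, with 7 of 13 genes called higher and 1 lower. Cyp4a14, a fatty acid omega hydroxylase, was at 41 to 73.5 CPM at 9 months and 0.5 mg/kg and at 220 to 644 at 5 mg/kg. At 18 months and 0.5 mg/kg it had 298, 233, 540, 279 and 26.6 CPM, against 384 to 1096 at 5 mg/kg. The fit gave 2.06 ± 0.42 (adjusted p = 0.0106), with 2.87 at 9 months alone and 1.29 at 18 months alone, and the dose-by-duration test did not call it. Cyp4a10 differed by 2.11 ± 0.43 (adjusted p = 0.0104), with medians of 297 and 1985 CPM, and Cyp4a31 by 2.28 ± 0.37 (adjusted p = 0.002). Acot1, a cytosolic thioesterase, had medians of 174 and 654 CPM (2.10 ± 0.46, adjusted p = 0.0167). Cyp4a32 at 1.96 and Acot2 at 2.13, both chosen after their values were seen, were called too, and probes of these near-identical Cyp4a and Acot genes may take each other's transcripts. Cyp4a32 lost its call without any 1 of 10 libraries. Cyp4f14, which inactivates leukotrienes, was the fall of the list, from 20 to 127 CPM down to 1.87 to 24.1 (-2.48 ± 0.40, adjusted p = 0.0018).

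Lipid uptake, binding and droplet genes had 12 of 22 called higher, none lower, and a median of 0.97. Fabp2, the intestinal-type fatty acid binding protein, was at 428 to 733 CPM at 0.5 mg/kg and at 923 to 2388 at 5 mg/kg, apart in all 20 libraries (1.18 ± 0.17, adjusted p = 0.000227). Fabp1, its abundant liver counterpart, had medians of 4886 and 8810 CPM (0.98 ± 0.19, adjusted p = 0.00478). Further called members, all chosen after their values were seen, were the droplet genes Plin2 at 0.70 and Fitm1 at 1.97, the uptake genes Cd36 at 0.96, Slc27a1 at 2.09, Slc27a4 at 0.67 and Lpl at 1.74, and the retinol saturase Retsat at 1.79. Fgf21, a hormone secreted by liver under PPAR-alpha control, had 0.408 to 8.62 CPM at 0.5 mg/kg and 2.08 to 33.7 at 5 mg/kg, and was not called (1.48 ± 0.49, adjusted p = 0.126; 0.043 with DESeq2). Ppara itself had medians of 130 and 176 CPM and was not called (0.43 ± 0.18, adjusted p = 0.269), nor was any of the 10 genes of PPARs and their partners. Calls were lost without single libraries for Lpl (9 of the 20), for Cd36 (9-month 0.5 mg/kg replicate 4 or 18-month 5 mg/kg replicate 3) and for Slc27a1 (the latter alone).

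Fatty acid synthesis had 4 of 19 genes called higher and a median of 0.29. They were Me1, which supplies NADPH, the elongase Elovl5 and the desaturases Scd2 and Scd1. Me1 was at 102 to 348 CPM at 0.5 mg/kg, at 196 to 395 at 5 mg/kg after 9 months and at 640 to 1020 after 18 (1.33 ± 0.22, adjusted p = 0.00124). Scd2 had medians of 10.4 and 37.2 CPM (1.82 ± 0.33, adjusted p = 0.00457), and Scd1, chosen after its values were seen, had 215 and 1150 (1.52 ± 0.31, adjusted p = 0.00935). Elovl5 was higher by 1.14 ± 0.20 (adjusted p = 0.00158), but its values at 5 mg/kg and 9 months, 327 to 1146 CPM, lay among those at 0.5 mg/kg and 18 months, 573 to 1261. Within each duration the doses were nearly or wholly apart: at 9 months the highest library at 0.5 mg/kg, at 328 CPM, lay beside the lowest at 5 mg/kg, at 327.

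No gene was called over both durations among 24 of cholesterol synthesis and uptake (median -0.10) and 18 of bile acid synthesis and transport (-0.18). The same held for 17 genes of the drug receptors CAR and PXR and their targets (0.21) and 6 targets of the dioxin receptor AhR (-0.26). It also held for 21 genes of the cell cycle (0.29), 15 of glucose metabolism (-0.20) and 12 of growth hormone signalling (-0.15). Single durations gave 1 call in the CAR and PXR list, at 18 months, and 1 in glucose metabolism, at 9 months. Cyp2b10, the usual CAR target, had medians of 155 and 118 CPM (-0.68 ± 0.42, adjusted p = 0.547), Cyp3a11, a PXR target, 283 and 831 (0.95 ± 0.29, adjusted p = 0.103; 0.014 with DESeq2), and Cyp1a2, an AhR target, 137 and 144 (-0.46 ± 0.34, adjusted p = 0.646). Stress lists gave 1 call each. Gpx4, a peroxidase that protects membrane lipids, was 1 of 20 oxidative stress genes, at 118 to 165 CPM and 158 to 244 (0.45 ± 0.10, adjusted p = 0.0129). Xbp1, a transcription factor of the unfolded protein response, was the fall among 14 ER stress genes, from a median of 179 to 110 CPM (-0.69 ± 0.14, adjusted p = 0.00532). Gadd45b, 1 of 13 p53 and DNA damage genes, was higher by 0.98 ± 0.26 (adjusted p = 0.0481), a call lost without any 1 of 15 libraries.

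**Figure D3:**
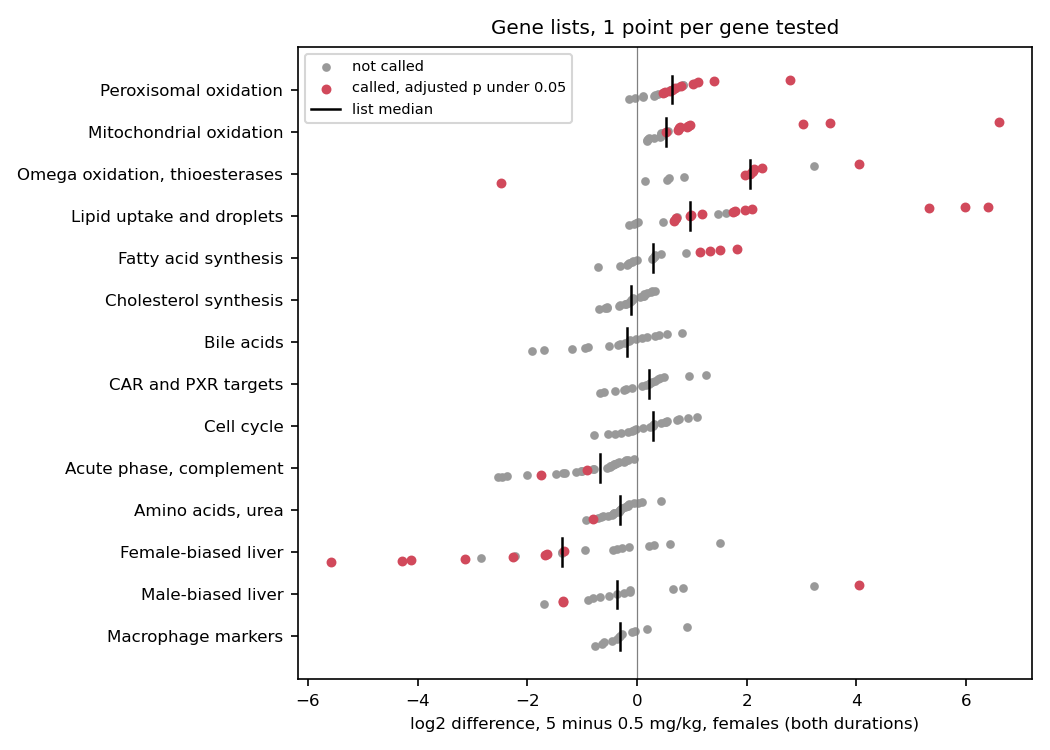
Log2 difference between 5 and 0.5 mg/kg in females for every tested gene of 14 gene lists, red where called and grey where not, with a black line at each list's median. The lists of fatty acid oxidation and lipid uptake lie to the right of 0 and the female-biased list to the left, at -1.37. Both durations were fitted together, and the macrophage list has no called gene in that fit.

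The list with the most genes lower at 5 mg/kg was that of female-biased expression in mouse liver: 8 of 21 were called lower and none higher, beside 0.985% of all genes called lower, and their median was -1.37. Sult3a1, a sulfotransferase, went from a median of 316 (83.2 to 1215) to 12.4 (3.50 to 86.6) CPM (-4.13 ± 0.66, adjusted p = 0.00225). Cyp3a44 was at 18.9 to 238 CPM at 0.5 mg/kg and at 0.641 to 12 at 5 mg/kg, without overlap (-3.14 ± 0.48, adjusted p = 0.00124).

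Cyp2c69, a further member, had 3.53 to 17.8 CPM at 9 months and 0.5 mg/kg and 0.187 to 1.76 at 5 mg/kg. After 18 months it was at 57.9, 18.8, 21.2, 6.71 and 0 CPM, the last being replicate 5, the library that stood apart in acute phase genes, against 0 to 2.21 (-4.28 ± 0.82, adjusted p = 0.00685). Cyp3a41a at -2.26, Cyp3a41b at -1.64, Sult2a2 at -1.33 and Sult2a5 at -1.68 were also called and were chosen after their values were seen. Sult2a5 lost its call without any 1 of 5 libraries: 9-month 0.5 mg/kg replicate 2, 9-month 5 mg/kg replicate 1, or 18-month 5 mg/kg replicate 2, 3 or 5. The Cyp3a41 pair is near-identical, so the values of its members are uncertain. Without the 18-month 0.5 mg/kg replicate 5, 8 of the 21 genes were called lower and the list's median was -1.48 (chosen after seeing the data). Related P450 genes outside the list, also chosen after their values were seen, included Cyp2c67 at -2.57 ± 0.47 (adjusted p = 0.00528) and Cyp2c50 at -1.93 ± 0.42 (adjusted p = 0.0138).

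Of 15 male-biased genes 1 was called higher and 2 lower, with a median of -0.37. The median was 0.31 at 9 months alone and -1.02 at 18 months alone, where 13 were tested. Cyp4a12a, the major male omega hydroxylase, which is also a member of the omega oxidation list, was at 1.48 to 6.47 CPM at 0.5 mg/kg and at 5.52 to 218 at 5 mg/kg, apart within each duration (4.05 ± 0.66, adjusted p = 0.00243). Serpina1e, an alpha-1 antitrypsin gene, was lower, with 2184 to 4957 and 1221 to 3125 CPM after 9 months and 5266 to 15760 and 1687 to 3921 after 18 (-1.35 ± 0.29, adjusted p = 0.00995). Its doses were apart only at 18 months. The family members Serpina1a at -1.07, Serpina1b at -0.90 and Serpina1d at -1.24 were called lower as well, Serpina1b and Serpina1d being chosen after their values were seen, and counts may be split among these similar genes. Serpina1b lost its call without 18-month 5 mg/kg replicate 1, 2 or 3. Mup3, a major urinary protein gene, had medians of 704 and 310 CPM (-1.34 ± 0.28, adjusted p = 0.0105).

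**Figure D4:**
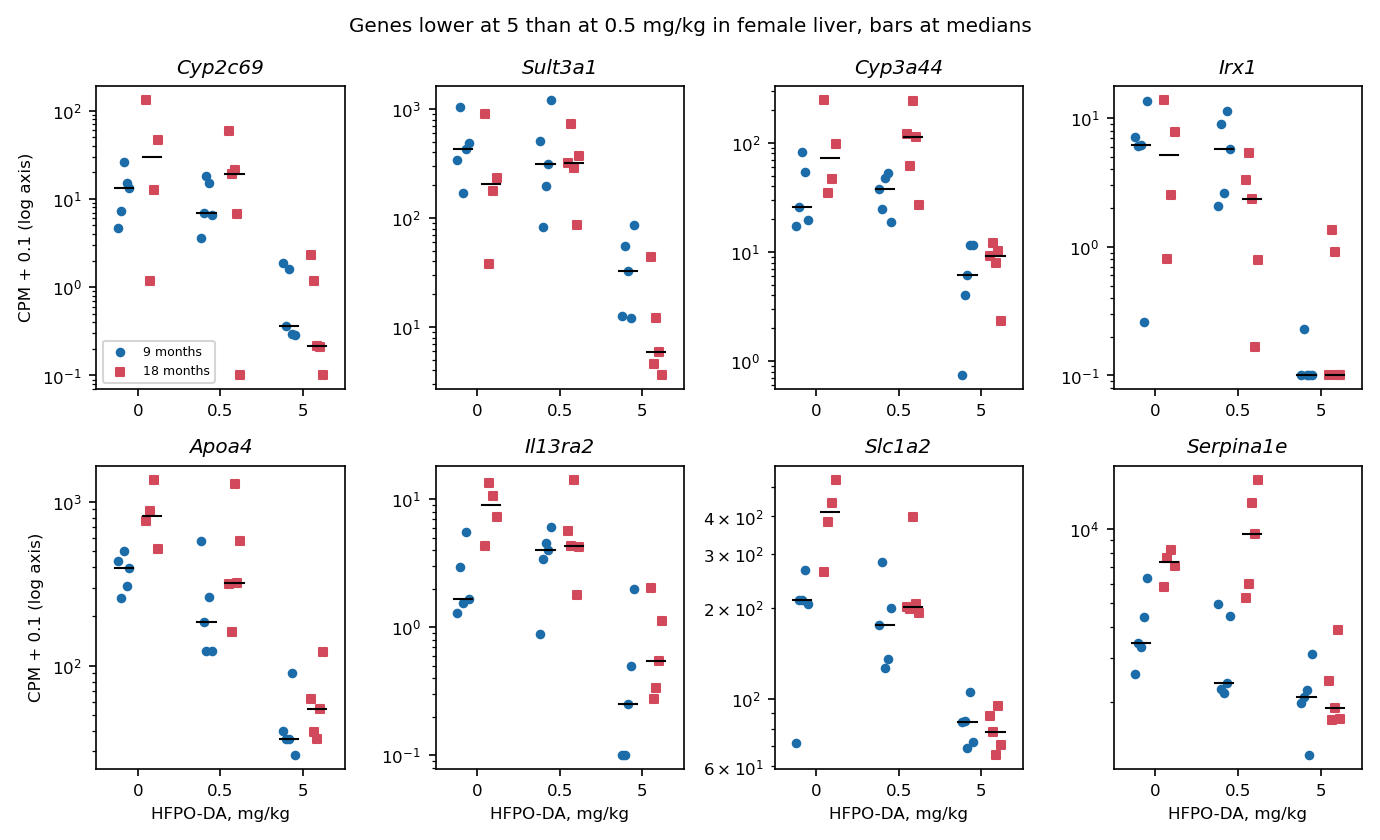
CPM + 0.1 on a log axis in female liver at 0, 0.5 and 5 mg/kg for 8 genes called lower at 5 than at 0.5 mg/kg, 1 point per animal, circles for 9 and squares for 18 months, bars at medians, without the 18-month control library of 403108 counts. Cyp3a44 and Slc1a2 are apart between 0.5 and 5 mg/kg at both durations, and Cyp2c69 has 1 library at 0.5 mg/kg and 18 months, at 0 CPM, among the 5 mg/kg values.

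Other large falls came from several pathways. Apoa4, an apolipoprotein of triglyceride-rich particles, was at 123 to 1291 CPM at 0.5 mg/kg and 28.3 to 122 at 5 mg/kg, apart within each duration (-2.78 ± 0.42, adjusted p = 0.00124). Il13ra2, a decoy receptor for interleukin 13, went from a median of 4.18 to 0.315 CPM (-2.96 ± 0.63, adjusted p = 0.00905). Irx1, a homeobox transcription factor, was at 1.96 to 11.4 CPM at 9 months and 0.5 mg/kg and was counted in 1 of 5 libraries at 5 mg/kg, at 0.130 (-4.03 ± 0.94 over both durations, adjusted p = 0.0174). Its 18-month libraries overlapped. Lrtm1, a leucine-rich repeat membrane protein, had pooled counts of 203 at 0.5 mg/kg and 3 at 5 mg/kg, a ratio of 58.7 (exact 95% interval 19.8 to 287). Sult5a1, another sulfotransferase, was lower by a fitted 3.28 ± 0.82 on the log2 scale (adjusted p = 0.0266), and so was Vipr1, a receptor of vasoactive intestinal peptide (-2.99 ± 0.78, adjusted p = 0.0353). Vipr1 lost its call without any 1 of 12 libraries, and Sult5a1 without 9-month 0.5 mg/kg replicate 1 or 18-month 5 mg/kg replicate 2.

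Zonal markers of hepatocytes gave few calls. Slc1a2, a glutamate transporter of pericentral hepatocytes, was at 127 to 397 CPM at 0.5 mg/kg and at 65.2 to 106 at 5 mg/kg, apart in all 20 libraries and called in each duration on its own (-1.38 ± 0.16, adjusted p = 1.2e-05). Oat, a pericentral aminotransferase, was the only other call among 14 (-1.19 ± 0.30, adjusted p = 0.0389). Of 12 periportal genes Hsd17b13, a droplet-bound dehydrogenase, was called higher (0.90 ± 0.23, adjusted p = 0.0396), with 353 to 523 CPM at 18 months and 5 mg/kg against 87.1 to 219 at 0.5 mg/kg and with overlap at 9 months. Tat, 1 of 25 amino acid and urea cycle genes, was lower by a fitted 0.80 ± 0.21 on the log2 scale (adjusted p = 0.0393). Without the 18-month 0.5 mg/kg replicate 5, 4 of these 25 were called lower. Oat, Hsd17b13 and Tat lost their calls without any 1 of 14 or 15 libraries.

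Acute phase and complement genes had 2 of 28 called lower, Crp and C9, and a median of -0.67, but their median was 0.33 at 9 months alone and -1.39 at 18 months alone. Crp, C-reactive protein, was at 722 to 1208 and 402 to 1227 CPM after 9 months and at 1389 to 4224 and 942 to 1080 after 18 (-0.92 ± 0.21, adjusted p = 0.0172). C9, the pore-forming complement protein, had medians of 692 and 246 CPM (-1.75 ± 0.42, adjusted p = 0.0305), a call lost without any 1 of 8 libraries. The 18-month 0.5 mg/kg replicate 5 had 66380 CPM of the serum amyloid gene Saa1, chosen after its values were seen, against 98.1 to 779 in the other 4 of its group. Without it the list's median was -0.14, and 3 of its genes were called lower.

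The lists of cell type markers held 3 called genes. Krt23, a keratin of bile duct epithelium, was at 0 to 12.8 CPM at 0.5 mg/kg and at 8.31 to 63.1 at 5 mg/kg, apart within each duration (2.51 ± 0.52, adjusted p = 0.0111), and was the only call among 5 cholangiocyte genes, whose median was -0.02. The summed level of the 8 cholangiocyte markers was 35 to 71.7 CPM at 0.5 mg/kg and 57.8 to 119 at 5 mg/kg after 9 months, and 67.3 to 664 and 105 to 195 after 18. Col4a2, a basement membrane collagen, was the only call among 16 stellate cell and matrix genes (0.74 ± 0.20, adjusted p = 0.0469), lost without any 1 of 15 libraries. Serpina1a, given above, was the call among 9 hepatocyte markers, lost without 18-month 5 mg/kg replicate 3. None of 12 macrophage genes was called over both durations, although 1 was called at 18 months alone. Their median was 0.55 at 9 months and -1.13 at 18 months. None of 11 endothelial genes was called over both durations (median -0.12), nor any at a single duration.

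Within single durations fewer genes passed. At 9 months 88 of 9975 genes (0.882%) were called, 62 higher (0.622%) and 26 lower (0.261%), and at 18 months 55 of 10933 (0.503%), 29 higher (0.265%) and 26 lower (0.238%). Called in each duration were Cidec, Ehhadh, Fabp2, Slc1a2, Me1, Fitm1, Grb10, Pla2g6 and Paxx, the last 4 chosen after their values were seen. Grb10, an adaptor that dampens insulin receptor signalling, was at 2.96 to 8.57 CPM at 0.5 mg/kg and 11.5 to 41.8 at 5 mg/kg, apart in all 20 libraries (2.08 ± 0.24, adjusted p = 1.1e-05). Pla2g6, a calcium-independent phospholipase, was likewise apart, at 50.5 to 109 and 125 to 268 CPM. Paxx, a DNA end-joining factor, was lower, at 20 to 93.3 and 10.2 to 16.1 CPM (-1.55 ± 0.20, adjusted p = 8.9e-05).

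Whether the dose difference itself changed with duration was tested as an interaction, which called 1 of 11476 genes (0.00871%), with 926 at an unadjusted p under 0.05 and 31 called with DESeq2. Gstm3, a glutathione transferase, is a member of the CAR and PXR list. After 9 months it was at 620 to 919 CPM at 0.5 mg/kg and 319 to 637 at 5 mg/kg. After 18 months it was at 615 to 899 and 1053 to 2078. The difference was -0.69 at 9 months and 1.05 at 18 months, a change of 1.74 ± 0.29 (adjusted p = 0.0352). That call was lost without any 1 of 12 of the 20 libraries. Age and sequencing depth differed along with duration and cannot be told apart from it.

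Females at 0.5 mg/kg were compared with females at 0 mg/kg to place the reference group, in a fit that shares the 0.5 mg/kg libraries with the main comparison and leaves out the control library of 403108 counts. It called 1 of 11382 genes (0.00879%), with 570 at an unadjusted p under 0.05 and 26 called with DESeq2. Klhdc4, a kelch domain protein, was at 1.29 to 4.48 CPM at 0 mg/kg and 5.03 to 12.5 at 0.5 mg/kg, without overlap (1.71 ± 0.25, adjusted p = 0.00612). At 5 mg/kg it was at 3.19 to 11.1 CPM and did not differ from 0.5 mg/kg beyond the test (-0.33 ± 0.23, adjusted p = 0.6). Fatty acid genes had positive differences that were not called. Cyp4a14 was at 2.37 ± 0.64 (adjusted p = 0.74) between 0 and 0.5 mg/kg and at 2.06 between 0.5 and 5, Acot1 at 2.03 ± 0.55 (adjusted p = 0.74) and 2.10, and Ehhadh at 1.14 ± 0.25 (adjusted p = 0.362) and 2.79. Pdk4 was at 0.08 ± 0.70 and 3.03. Between 0 and 0.5 mg/kg the list medians were -1.54 for lymphocyte and plasma cell markers and -1.02 for the cell cycle. Control replicates 1 and 3 at 9 months, which stood apart in lymphocyte and blood cell markers, were kept in this fit.

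**Figure D5:**
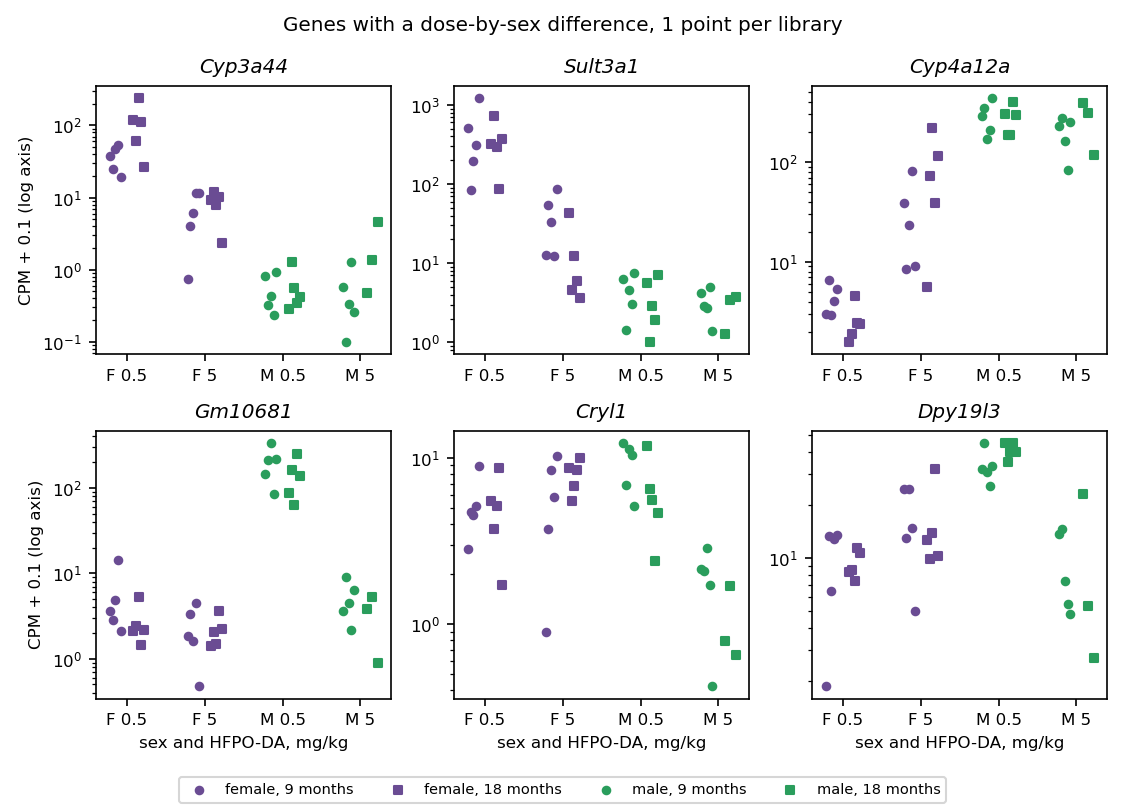
CPM + 0.1 on a log axis in female (F) and male (M) liver at 0.5 and 5 mg/kg for 6 of 7 named genes with a dose-by-sex difference, 1 point per animal, circles for 9 and squares for 18 months. Males at 0.5 and 5 mg/kg have Gm10681 medians of 155 and 4.07 CPM and females of 2.56 and 1.86.

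The same difference in males, from 18 libraries at these doses, was compared with that in females by a dose-by-sex interaction over 38 libraries. Males at 18 months and 5 mg/kg had only 3 libraries, and replicate 2 had 34.3% of its counts in its 10 most abundant genes. Male replicate 5 at 9 months and 5 mg/kg had Y-linked genes at 16.5 CPM without TMM scaling. All other male libraries of the series had 48.6 to 92.7. Both libraries were kept in the fit. The interaction called 19 of 12714 genes (0.149%), 8 with a more positive (0.0629%) and 11 with a more negative difference in females (0.0865%), and DESeq2 called 186. Cyp3a44 (-4.17 ± 0.80, adjusted p = 0.0124) and Sult3a1 (-3.66 ± 0.78, adjusted p = 0.0407) fell in females and were low in males at both doses, with medians of 0.330 and 0.430 CPM for Cyp3a44 and of 3.72 and 3.04 for Sult3a1. Conversely, Cyp4a12a (4.32 ± 0.66, adjusted p = 0.0011) had male medians of 295 and 241 CPM, and the females at 5 mg/kg reached 218.

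In the other genes the male difference was the larger one. Gm10681, a predicted gene, had medians of 155 and 4.07 CPM in males at the lower and higher dose, and of 2.56 and 1.86 in females (4.60 ± 0.60, adjusted p = 5.76e-05). Cryl1, a crystallin-like dehydrogenase, was at medians of 6.57 and 1.61 CPM in males and 4.81 and 7.49 in females (2.95 ± 0.53, adjusted p = 0.00548). Dpy19l3, a mannosyltransferase, was at 37.3 and 6.30 CPM in males and 9.50 and 13.4 in females (2.70 ± 0.49, adjusted p = 0.00549). Slc5a1, a glucose transporter, was at 2.64 and 13 CPM in males and 10.0 and 10.3 in females (-3.20 ± 0.70, adjusted p = 0.0478). Slc5a1 and Sult3a1 lost their calls without any 1 of 24 and 19 of the 38 libraries, and Cyp3a44 without male replicate 4 at 9 months or 3 at 18 months, both at 5 mg/kg. Without male replicate 1 at 18 months and 5 mg/kg 159 genes were called, and without male replicate 2 at 18 months and 0.5 mg/kg 126.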

How the data were processed

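The authors deposited raw counts per TempO-Seq probe, 1 column for each of 92 animals, per the labels. Per the submitters' processing notes, bcl2fastq 2.17.1.14 separated the reads by sample and Bowtie aligned them. For the Bowtie version, genome build and probe list, the sources used here say nothing. The table had 30146 probe rows for 21400 symbols, and counts of the 6309 symbols with more than 1 probe were summed. The labels mention no molecular identifiers, so intervals cover counting error only. Separate animals are the replicates.

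Genes were filtered with filterByExpr over the 4 dose-by-duration groups, scaled with TMM and tested with edgeR 4.0.16 (R 4.3.3), quasi-likelihood F test with robust estimation, with duration as a block. P-values were adjusted by Benjamini-Hochberg over all genes tested, and a gene was called under 0.05. SE is the log2 difference over the square root of F. CPM use TMM over all 92 libraries. Interactions with duration (20 libraries, 4 group means) and sex (38 libraries, 8 group means) used the same settings. The comparison of 0.5 with 0 mg/kg left out the 1 library under 0.333 of the median total. The fit was also run on counts simulated from its own model, which cannot show how calls on real counts behave.

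Members and gene lists were chosen with earlier results of these data known, so lists are given by counts and medians without a list test. Named genes are the 10 largest called rises and falls and up to 3 called members of each list with the smallest p. These had a mean of at least 10 counts per library. Added were 11 fixed genes with no minimum (Acot1, Cyp1a2, Cyp2b10, Cyp3a11, Cyp4a10, Cyp4a14, Ehhadh, Fgf21, Pdk4, Pex11a and Ppara). The 4 largest in each direction of the other tests needed that mean in at least 1 group compared. Values of 2 genes that the rule names are not reported here. Others are said to have been chosen after their values were seen, except cell type markers given by their level alone, which had no minimum count. Promoter sequences came from RefSeq windows of GRCm38.p6. Alternatives were RLE scaling, no low-count filter, DESeq2 1.42.0, stricter thresholds, other sets of libraries, no block, probes not summed, single durations and each library left out.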

Additional observations from a re-analysis of the deposited data

Results flagged for a closer look

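In groups of 5 animals, a sample was picked out when its gap to its nearest neighbour took more than 0.71 of the group's range on log2(CPM + 1). Of 124 groups checked over 31 genes, 17 had such a sample. A chance rate of about 1 in 20 does not hold here, because a group with counts in 1 library alone is always picked out. Many were a few counts where the other libraries of the group had none: Ucp3 at 18 months and 0.5 mg/kg (replicate 5, 0.115 CPM), Cidea at 0.5 mg/kg (9-month replicate 3, 0.149, and 18-month replicate 4, 0.0671), Aqp7 at 9 months and 0.5 mg/kg (replicate 4, 0.676), Scn4b there (replicate 4, 0.135), Lrtm1 at 5 mg/kg (9-month replicate 2, 0.130, and 18-month replicate 1, 0.201), Irx1 at 9 months and 5 mg/kg (replicate 2, 0.130) and Ighv1-9 there (replicate 3, 1.21).

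The others stood on higher counts. At 0.5 mg/kg Sptlc3 was at 2.22 CPM in 9-month replicate 2 (others 0 to 0.297) and 9.30 in 18-month replicate 3 (others 0 to 0.460), and Aqp3 at 2.21 in 18-month replicate 4 (others 0.134 to 0.435). Cyp4a14 was low in 18-month 0.5 mg/kg replicate 5, at 26.6 CPM against 233 to 540, the library that stood apart in acute phase genes. At 5 mg/kg 9-month replicate 4 was high in Cidec, at 14.6 CPM against 8.46 to 9.77, and in Apoa4, at 90.6 against 28.3 to 39.6. At 5 mg/kg and 18 months Ucp3 was low in replicate 1, at 0.804 CPM against 3.43 to 4.52, and Cyp3a44 in replicate 5, at 2.26 against 7.85 to 12. None of these samples was left out of the comparison.

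The difference between doses itself differed between durations in Gstm3, by 1.74 (18 minus 9 months, adjusted p = 0.0352, edgeR). Between the sexes it differed, female minus male, in Cyp3a44 by -4.17, Sult3a1 by -3.66, Slc5a1 by -3.20, Gm10681 by 4.60, Cyp4a12a by 4.32, Cryl1 by 2.95 and Dpy19l3 by 2.70, with adjusted p from 5.76e-05 to 0.0478.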

How the results depend on the processing

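No paired analysis was possible because the labels give no replicate numbers, so replicate numbers only name the animals. For 5 versus 0.5 mg/kg, against 295 genes called, DESeq2 called 472, an adjusted p under 0.01 left 108, a fit with no duration block 187, 9 months alone 88 and 18 months alone 55, and leaving out each library gave 188 to 328. RLE scaling (290), no low-count filter (256), a fit of all 92 libraries (278), of all females (313), group means (318), probes not summed (300) and a fold of at least 1.5 (253) stayed within 1.5 times. The interaction with duration, 1 gene, became 31 with DESeq2, 2 with no low-count filter or thinned counts, 0 at an adjusted p under 0.01, in a fit of all 92 libraries or with probes not summed, and 0 to 3 without single libraries. The interaction with sex, 19 genes, became 186 with DESeq2, 8 at an adjusted p under 0.01 and 12 to 159 without single libraries. For 0.5 versus 0 mg/kg, 1 gene, DESeq2 called 26, and leaving out single libraries gave 1 to 3. Where counts moved, the cause was not tested. Each of the 20 libraries was left out in turn, and 78 of 100 named genes called kept their call in every such fit that tested them. Lrtm1, among the 78, was tested in only 18 of these 20 fits. None of the 100 changed direction under any setting. DESeq2 lost 0 of these calls, RLE scaling 1, no low-count filter 14, a fit of all 92 libraries 19, no duration block 26, an adjusted p under 0.01 45, 9 months alone 56 of 91 with a value and 18 months alone 70 of 93. Depth limits genes such as Ucp3, Cidea and Lrtm1, whose folds rest on 2 or 3 pooled counts at 1 dose.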

Other observations

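A further set of called genes, all chosen after their values were seen, touched lipid and drug metabolism outside the lists. Ephx2, the soluble epoxide hydrolase that converts epoxides of fatty acids, was at 911 to 1957 CPM at 0.5 mg/kg and 1575 to 3146 at 5 mg/kg (0.87 ± 0.15, adjusted p = 0.002), and Ephx1, its microsomal counterpart for foreign epoxides, was higher by 0.92 ± 0.21 (adjusted p = 0.0174), edgeR. Mogat1, an acyltransferase of triglyceride synthesis, had medians of 0.236 and 9.80 CPM (3.44 ± 0.66, adjusted p = 0.00533). Cox6b2, a cytochrome oxidase subunit known mainly from testis, had 0.185 to 3.83 CPM at 0.5 mg/kg and 3.21 to 41.1 at 5 mg/kg (3.77 ± 0.46, adjusted p = 8.3e-05). Fbp2, the muscle-type fructose bisphosphatase, was at 0 to 2.97 and 2.66 to 30.3 CPM, apart within each duration (3.75 ± 0.72, adjusted p = 0.00593). Lepr, the leptin receptor, was higher by 1.49 ± 0.33 (adjusted p = 0.014).

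Genes for secreted and receptor proteins were among the falls. Apom, an apolipoprotein of HDL, was lower within each duration without overlap (-1.19 ± 0.19, adjusted p = 0.000924), as was Lifr, the receptor of leukaemia inhibitory factor, at 147 to 270 and 76.5 to 134 CPM (-0.83 ± 0.14, adjusted p = 0.00113). Noct, a phosphatase with a daily rhythm, had medians of 76.8 and 11.7 CPM (-2.10 ± 0.45, adjusted p = 0.0144). The time of day of sampling is not given in the sources used here.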
